A study of Homo sapiens with 6 samples.

Results

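Interferon-stimulated genes are the genes that a cell switches on when interferons bind their receptors, and they are usually introduced through their large families, such as the oligoadenylate synthetases and the IFIT proteins. The 42 genes described here are interferon-stimulated genes that stand outside those families, taken by symbol from a written list and not by a threshold on their values. All 42 were found among the 61517 genes of the count table. They were measured by poly-A-selected RNA sequencing in THP-1, a human monocytic leukaemia cell line that was turned into macrophages. Lipopolysaccharide and ATP were used to bring on pyroptosis, a lytic and inflammatory form of cell death, and the control and ruxolitinib groups both received that stimulation. The control group (3 libraries) had no drug, and the ruxolitinib group (3 libraries) was also given ruxolitinib, an inhibitor of the kinases JAK1 and JAK2, whose name is spelled Lukotinib in the treatment labels. All libraries come from this single line, so they stand for 1 genetic background. The sources used here do not give the dose, the exposure times or the agent used for differentiation. Unstimulated cells were not analysed here, so a level in the control group is a stimulated level and not a resting one.

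Interferon receptors carry JAK family kinases on their inner side. These kinases phosphorylate STAT family transcription factors. After type I interferons, a complex that holds STAT2 and IRF9 binds an interferon-stimulated response element in promoters, and interferon-gamma acts through a different element, the gamma-activated site. Many of the induced proteins act on viral RNA, membranes or nucleotides, and macrophages also make type I interferon themselves after lipopolysaccharide, so that one cell can feed the response of another.

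The promoters of several members carry the letters of the response element close to a RefSeq start. Such a start can lie well inside the annotated gene, as for DDX60L, RSAD2 and IFI27. The stretches below are shown because their genes lie at both the strong and the moderate end of the response described next. Sequences are from RefSeq, build GRCh38.p14, written 5′ to 3′ on the gene's strand, with each copy of the motif (GAAA, any 2 bases, GAAA), or of its reverse complement, in capitals. The IFI44L stretch is chr1:78620259-78620318 on the plus strand, inside the gene and outside its exons. The EPSTI1 stretch is chr13:42992272-42992301 on the minus strand, in no exon. The IFI44 stretch is chr1:78649729-78649788 on the plus strand, in no annotated gene. The RSAD2 stretch is chr2:6877622-6877651 on the plus strand, inside the gene and in no exon. The IFI27 stretch is chr14:94110609-94110668 on the plus strand, inside the gene and outside its exons. The IFI6 stretch is chr1:27672314-27672373 on the minus strand, inside the annotated gene AL445490.1 and outside exons. The LAP3 stretch is chr4:17576990-17577049 on the plus strand, in no annotated gene. The DDX60L stretch is chr4:168480523-168480582 on the minus strand, inside the gene and outside its exons.
IFI44L: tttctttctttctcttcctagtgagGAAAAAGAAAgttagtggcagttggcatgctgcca
EPSTI1: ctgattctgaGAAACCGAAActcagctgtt
IFI44: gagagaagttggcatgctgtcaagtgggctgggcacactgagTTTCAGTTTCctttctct
RSAD2: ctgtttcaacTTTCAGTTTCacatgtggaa
IFI27: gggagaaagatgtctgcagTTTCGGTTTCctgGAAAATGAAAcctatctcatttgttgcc
IFI6: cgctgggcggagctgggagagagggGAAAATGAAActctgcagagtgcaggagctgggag
LAP3: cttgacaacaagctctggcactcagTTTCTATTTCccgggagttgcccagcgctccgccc
DDX60L: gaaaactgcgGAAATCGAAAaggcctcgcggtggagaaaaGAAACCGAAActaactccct
The match ended 154 bases before the RefSeq start in IFI44L, 40 bases before it in EPSTI1 and 8 bases before it in IFI44. IFI27 and DDX60L each hold 2 copies within the stretch shown.

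With ruxolitinib nearly the whole group fell. Of the 37 members that passed the filter on low counts, 34 (91.9%) were lower at an adjusted p under 0.05, 1 was higher and 2 did not pass, where over all 14051 genes tested 16.1% were lower and 13.6% were higher, 29.7% in all. The size of the fall differed widely. IFI44L and EPSTI1 kept 0.319% and 2.29% of their control level under the drug, IFI6 and LAP3 kept 25.4% and 24.8%, TOR1B kept 87.8%, and LAMP3 rose to 157%. The test was edgeR's quasi-likelihood test with Benjamini-Hochberg adjustment over all genes tested, and the adjusted p-values that follow come from it unless another method is named. IFI44L and ETV7 reached the level of that filter in all libraries only in the control group, which fixes their direction. Among the 35 members that reached it in all 6 libraries, 32 (91.4%) were lower.

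Levels are given as CPM, the reads of a gene scaled to a common library total. The log2 fold change is ruxolitinib over control, and the residual level is the mean CPM with ruxolitinib as a percent of the mean in control. The median log2 fold change of the 37 members tested was -1.97, against -0.01 over all genes tested, with quartiles of -3.13 and -1.08 and a range from -8.27 to 0.65. Past the threshold with a log2 fold change of -2 or below were 17 of these members (45.9%) and 0.776% of all genes tested, and with one of -1 or below 28 members and 2.97% of all genes tested. Counted over all 42 members with no filter, 37 (88.1%) had every ruxolitinib library below every control library, which held for 23.8% of all genes tested. Of the other 5, LAMP3 had every ruxolitinib library above every control library, as did 20.5% of all genes tested, and NT5C3A, SCO2, VAMP5 and FAM20A had groups that overlapped.

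**Figure D1:**
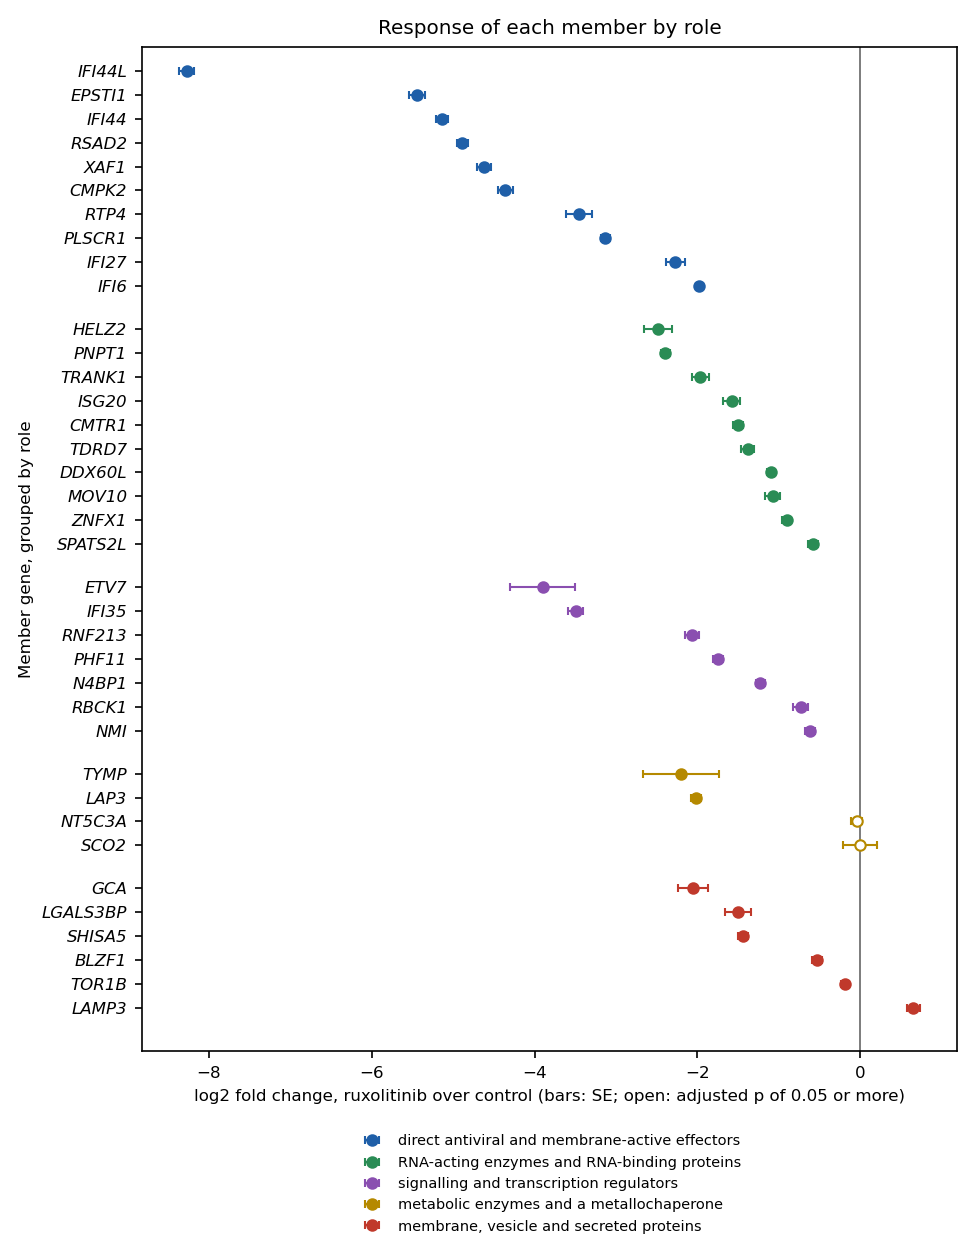
Log2 fold change (ruxolitinib over control, edgeR, bars are SE) of the 37 members tested, coloured and grouped by role. Open points did not pass, and the roles were drawn up with results known. IFI44L lies at -8.27, and LAMP3 at 0.65 is the one member called higher.

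The summed level of the 42 genes was 4697 to 4795 CPM in the control libraries and 1276 to 1303 CPM in the ruxolitinib libraries. The libraries of each group therefore lay close together and far from the other group. Reads of IFI6 alone made 22.6% of the control sum and 21.1% of the ruxolitinib sum. Between replicates, the median coefficient of variation of the members tested was 5.65% in control and 7.17% with ruxolitinib, with the widest spread in TYMP in control (55.5%) and in ETV7 with ruxolitinib (66.0%). Taking the libraries of 1 batch label as a pair, the median log2 ratio of the members tested was -1.88, -1.75 and -1.73 in the 3 batches. All 3 pairs were lower in 38 of the 42 members, but the share of all genes with that pattern was not counted. These 38 include STAP1, VAMP5, SECTM1 and CCDC194, which are under the filter on low counts.

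Total counts ran from 17757595 to 24533979 in control and from 18796476 to 19253534 with ruxolitinib, and a count of 0 allows up to 0.122 to 0.169 CPM by counting error alone. Control replicate 2 had the largest total and the most genes detected, 24798 against 21126 to 22675 in the other libraries. It exceeded both other controls by over 1.2 times in 3 of the members tested and in 14.5% of all genes tested. Of 12 monocyte and macrophage markers, 11 had a control mean of at least 1 CPM. The summed level of all 12 was 1220 to 1254 CPM in control and 676 to 728 CPM with ruxolitinib. The markers moved with the drug too: of the 11 tested, 9 were lower, LYZ was higher and CD4 did not pass, with CD68 at a log2 fold change of -1.10 ± 0.04 (SE). Of 16 markers of other cell types, 4 reached 1 CPM in control. All 16 together summed to 223 to 230 CPM in control against 186 to 222 CPM with ruxolitinib, nearly all of it NCAM1. NKG7, a marker of natural killer cells, fell by 1.93 ± 0.20 (adjusted p = 2.04e-05), from 5.68 to 1.49 CPM, while CD3E, CD3D and HBB were at 0 in every library. The part of these shifts in the members' results was not tested. In bulk RNA, fewer cells of a kind and less RNA per cell cannot be told apart.

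The 6 members with a log2 fold change of -4 or below were IFI44L, EPSTI1, IFI44, RSAD2, XAF1 and CMPK2. They are described here in a group of 10 effector genes, drawn up with results known, that holds antiviral proteins, membrane proteins and proteins that act on cell death or nucleotides. All 10 were tested and all 10 fell, and their median log2 fold change was -4.49. The group holds all 6 of the members just named, so its median depends on how the roles were drawn up. The role groups below come from the same assignment, and their medians were not compared by a test. Their residual levels ran from 0.319% to 25.4%. IFI44L and IFI44 are related cytoplasmic proteins encoded side by side on chromosome 1, at chr1:78619922-78646145 and chr1:78649796-78664078 (GENCODE 29, GRCh38, both on the plus strand). IFI44L stood at 162, 168 and 154 CPM in control replicates 1 to 3 and at 0.525, 0.536 and 0.483 CPM in ruxolitinib replicates 1 to 3. In reads, that is 2874, 4204 and 3553 against 10, 10 and 9. The groups lay far apart, and the log2 fold change was -8.27 ± 0.09 (SE, adjusted p = 8.4e-14). IFI44 stood at 268, 255 and 250.2 CPM in control and at 8.09, 6.81 and 7.03 CPM with the drug. Every drug library was again far under every control, with a residual level of 2.84% and a log2 fold change of -5.14 ± 0.07 (adjusted p = 1.3e-13).

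EPSTI1, an interferon-induced protein on chromosome 13 (chr13:42886388-42992271, minus strand), had control levels of 149, 135 and 142 CPM and ruxolitinib levels of 3.89, 3.27 and 2.63 CPM. Every drug library lay far under every control library, and the log2 fold change was -5.44 ± 0.10 (adjusted p = 8.15e-13). RSAD2, also called viperin, is a radical-SAM enzyme that makes a chain-terminating nucleotide against viral polymerases. It stood at 154, 143 and 154 CPM in control and at 5.15, 4.93 and 5.15 CPM with ruxolitinib. The groups did not overlap, and the log2 fold change was -4.89 ± 0.07 (adjusted p = 1.43e-13).

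CMPK2, a mitochondrial nucleotide kinase, is encoded beside RSAD2 on the opposite strand (chr2:6840570-6866635 and chr2:6865806-6898239). Its levels were 113, 123 and 109.7 CPM in control and 4.67, 6.43 and 5.75 CPM with ruxolitinib, a log2 fold change of -4.36 ± 0.09 (adjusted p = 7.52e-12). The ends of both genes overlap and the strand setting of the counting is not given, so reads in the shared bases cannot be assigned to one gene or the other. XAF1, which antagonises the apoptosis inhibitor XIAP, had 142, 124 and 138 CPM in control and 5.99, 5.15 and 5.26 CPM with the drug. Its groups were as clearly apart, with a log2 fold change of -4.62 ± 0.08 (adjusted p = 8.12e-13). A short transcript annotated on the other strand overlaps XAF1 as well.

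PLSCR1, a phospholipid scramblase of the plasma membrane, stood at 469, 431 and 437 CPM in control and at 48.7, 53.5 and 50.2 CPM with ruxolitinib. The groups were widely apart, and the log2 fold change was -3.13 ± 0.06 (adjusted p = 8.45e-13). IFI6, a small membrane protein of the endoplasmic reticulum and mitochondria that counters cell death, had the highest level per exon length in both groups. Its levels were 1101, 1056 and 1054 CPM in control and 274, 263 and 279.9 CPM with the drug. That is a mean of 1071 ± 26.7 (SD, n = 3) against 272 ± 8.81 CPM (SD, n = 3). IFI6 fell to 25.4% of control with a log2 fold change of -1.98 ± 0.05 (adjusted p = 1.07e-11).

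RTP4, a receptor-transporting protein that binds viral RNA, had a residual level of 9.07% and a log2 fold change of -3.45 ± 0.16 (adjusted p = 1.68e-08). IFI27, a small protein of mitochondria and the nuclear envelope, kept 20.7%, with a log2 fold change of -2.27 ± 0.12 (adjusted p = 4.14e-08). Neither had overlapping groups, with control levels of 11.4 to 14.1 CPM and 13.3 to 15 CPM.

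**Figure D2:**
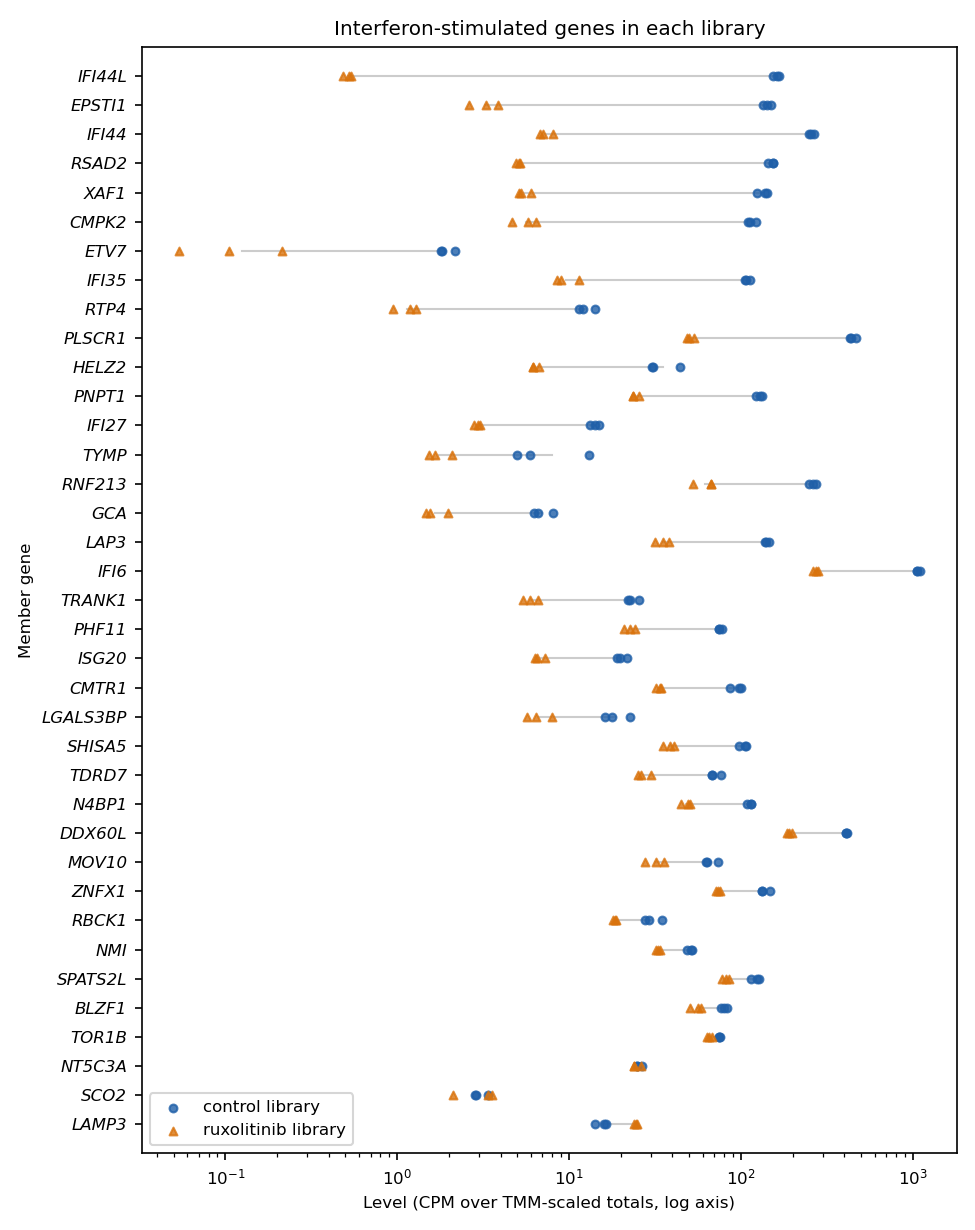
CPM (log axis) of the members tested in each control library (circles) and each ruxolitinib library (triangles), with a grey line joining the group means. IFI44L drops from over 150 CPM to about 0.5 CPM in every drug library, and the 2 groups overlap for NT5C3A and SCO2.

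The members grouped here as RNA-acting or RNA-binding fell as well. All 10 were tested and all 10 fell, and their median log2 fold change was -1.44. Their residual levels ran from 18% to 66.8%. HELZ2, a helicase that works as a nuclear receptor coactivator, fell by 2.48 ± 0.17 on the log2 scale (adjusted p = 1.94e-05). Its control replicate 2 stood at 44.5 CPM beside 30.5 and 30.9 CPM in the other controls, all above the 6.16 to 6.66 CPM with ruxolitinib. PNPT1, the mitochondrial polynucleotide phosphorylase, fell by 2.39 ± 0.06 (adjusted p = 1.86e-11). TRANK1, a large protein with ankyrin repeats that was placed in this group by assignment, fell by 1.97 ± 0.10 (adjusted p = 5.32e-08).

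ISG20, an RNA exonuclease, kept 33.4% of its control level, and CMTR1, which methylates the mRNA cap, kept 35.3%. TDRD7, a Tudor-domain protein of RNA granules, kept 38.4%. DDX60L, a putative RNA helicase, stood at 412, 411 and 408 CPM in control and at 189.8, 185 and 199 CPM with ruxolitinib. The spread within each group was small beside the gap, and the log2 fold change was -1.10 ± 0.04 (adjusted p = 3.35e-09). It kept 46.7% of its control level.

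MOV10, an RNA helicase that restricts retroelements, kept 47.5%, and ZNFX1, a helicase-type sensor of double-stranded RNA, kept 53.5%. SPATS2L, a stress granule protein, kept 66.8% with a log2 fold change of -0.58 ± 0.06 (adjusted p = 1.29e-05). The groups did not overlap in any of these 3 genes. Transcripts annotated on the other strand overlap MOV10 and ZNFX1.

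Of the 8 regulators of signalling and transcription, 7 were tested and all 7 fell, and their median log2 fold change was -1.75. ETV7, an ETS family repressor, had few reads, at 1.80, 1.83 and 2.17 CPM in control and 0.105, 0.214 and 0.0537 CPM with ruxolitinib. Over the 3 libraries of each group that is 128 reads against 7, or 6.23% of the control rate (95% exact interval 2.46% to 13.2%, counting error only). Its log2 fold change was -3.90 ± 0.40 (adjusted p = 1.63e-05). IFI35 and NMI are partner proteins that bind each other. IFI35 stood at 113, 106 and 108 CPM in control and at 11.4, 8.47 and 9.02 CPM with the drug, a log2 fold change of -3.49 ± 0.09 (adjusted p = 9.12e-11). NMI stood at 51.9, 48.5 and 51.1 CPM in control and at 32.1, 33.7 and 33.1 CPM with the drug, a log2 fold change of -0.61 ± 0.06 (adjusted p = 7.87e-06). The groups did not overlap for either gene, and NMI kept 65.3% where IFI35 kept 8.86%, a difference between genes that was not tested.

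RNF213, a giant ubiquitin ligase that can mark bacterial lipopolysaccharide, fell by 2.07 ± 0.09 (adjusted p = 3.16e-07), from 248 to 272 CPM in control to 52.9 to 66.9 CPM. Other annotated transcripts lie inside or across it, so some of its reads cannot be assigned with certainty. PHF11, a PHD-finger protein, fell by 1.75 ± 0.06 (adjusted p = 1.11e-09). N4BP1, an RNase that restrains NF-kB signalling, kept 42.8%. RBCK1, the HOIL-1 subunit of the linear ubiquitin ligase, kept 60.3%. In these 4 genes too, every drug library was below every control library.

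The 4 metabolic genes were split. LAP3, a leucine aminopeptidase, fell by 2.01 on the log2 scale (adjusted p = 3.05e-10), from 138 to 146 CPM in control to 31.8 to 38.1 CPM. TYMP, the thymidine phosphorylase, stood at 4.96, 13.1 and 5.95 CPM in control and at 1.52, 1.66 and 2.09 CPM with the drug. The groups did not overlap, but control replicate 2 was 2.20 times the next control. TYMP fell by 2.20 ± 0.46 (adjusted p = 0.0169), and without control replicate 2 by 1.64 (adjusted p = 1.43e-05). With all controls kept, the TYMP call was lost without ruxolitinib replicate 1 (adjusted p = 0.0733), replicate 2 (0.0981) or replicate 3 (0.0661). Leaving out batch 3 in both groups lost the call too (0.0753).

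SCO2, a copper chaperone of cytochrome c oxidase whose gene overlaps TYMP on the same strand on chromosome 22, showed no difference that passed, and reads in the bases shared with TYMP cannot be assigned with certainty. Its levels were 3.38, 2.87 and 2.82 CPM in control and 2.10, 3.38 and 3.54 CPM with ruxolitinib. The groups overlapped, with a log2 fold change of -0.00 ± 0.21 (adjusted p = 0.993), between -0.18 and 0.28 under the alternatives run. NT5C3A, a pyrimidine nucleotidase, stood at 26.4, 25 and 24.8 CPM in control and at 23.7, 26.3 and 23.8 CPM with the drug. It overlapped as well, and its log2 fold change was -0.04 ± 0.07 (adjusted p = 0.693), between -0.10 and 0.01 under all alternatives run.

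Among 10 membrane, vesicle and secreted proteins, 6 were tested, 5 fell and LAMP3 rose. LAMP3, a lysosomal membrane protein known as a marker of mature dendritic cells (chr3:183122213-183163839, minus strand), stood at 16.1, 14.2 and 16.4 CPM in control and at 23.7, 24.9 and 24.6 CPM with ruxolitinib. All 3 drug libraries were above all 3 controls, and the log2 fold change was 0.65 ± 0.08 (adjusted p = 7.04e-05). It stayed higher, past the threshold, under every alternative run. TOR1B, a torsin ATPase of the endoplasmic reticulum, stood at 74.3, 74.3 and 75.2 CPM in control and at 64.8, 68.3 and 63.4 CPM with the drug. The groups did not overlap, yet the fall was small, at -0.19 ± 0.05 (adjusted p = 0.0142). The TOR1B call was lost without control replicate 1 (adjusted p = 0.0714), control replicate 3 (0.0802), ruxolitinib replicate 1 (0.0760) or ruxolitinib replicate 3 (0.0519). It was also lost with the batch number as a block (0.0667), with DESeq2 (0.0628) and without batch 1 (0.186) or batch 3 (0.119).

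GCA, the calcium-binding protein grancalcin, fell by 2.05 ± 0.18 (adjusted p = 4.84e-06) from 6.26 to 8.11 CPM in control. LGALS3BP, a secreted galectin-binding glycoprotein, kept 35.5%, and SHISA5, a membrane protein of the endoplasmic reticulum, kept 36.9%. BLZF1, a golgin-binding protein, kept 69.2% with a log2 fold change of -0.53 ± 0.06 (adjusted p = 5.03e-05). None of these 4 had overlapping groups.

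The 5 members under the filter on low counts are given as reads. In a fit with no filter, edgeR called 3 of them lower: STAP1 (log2 fold change -2.33 ± 0.61, adjusted p = 0.00165), CCDC194 (-2.87 ± 0.72, adjusted p = 8.56e-04) and SECTM1 (-2.21 ± 0.82, adjusted p = 0.0496). VAMP5 (-0.74 ± 0.62, adjusted p = 0.532) and FAM20A (-0.25 ± 0.88, adjusted p = 0.891) did not pass there. STAP1, an adaptor protein, had 16, 12 and 14 reads in control and 1, 0 and 6 with ruxolitinib. The rate with the drug was 19% of control (95% exact interval 7.20% to 42.7%, counting error only). CCDC194 had 14, 11 and 11 reads against 3, 0 and 1, or 12.7% of the control rate (3.27% to 35.3%). SECTM1, a secreted and transmembrane protein, had 2, 14 and 8 reads against 2, 1 and 1, with control replicate 2 the highest, and a rate of 19% (4.79% to 55.3%). Without that library the SECTM1 interval was 6.502% to 98.5%. For these 3 genes the intervals lie under the control rate, which compares these libraries and not the conditions. VAMP5, a SNARE protein, had 11, 6 and 8 reads against 6, 3 and 4, and its interval of 27.8% to 120.3% spans the control rate. FAM20A, a pseudokinase, had 5, 4 and 2 reads against 4, 0 and 4, and a difference was not detectable at this depth.

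By residual level, 6 of the 37 members tested kept under 5% of control, 6 kept 5% to 20%, 16 kept 20% to 50%, 8 kept 50% to 100% and LAMP3 kept over 100%. The median over these 37 was 25.6%. Compared per kilobase of exon (RPKM, here over the union of annotated exons), the order of the levels was not the same in both groups. In control, IFI6 led with 1238 RPKM, followed by IFI44 (126), PLSCR1 (103) and IFI35 (55.2). With ruxolitinib, IFI6 led with 315 RPKM, and TOR1B (22.5), DDX60L (15.8) and BLZF1 (14.5) came next. IFI44L went from place 17 to place 37 of the members in that order, at 15.7 and 0.0503 RPKM.

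**Figure D3:**
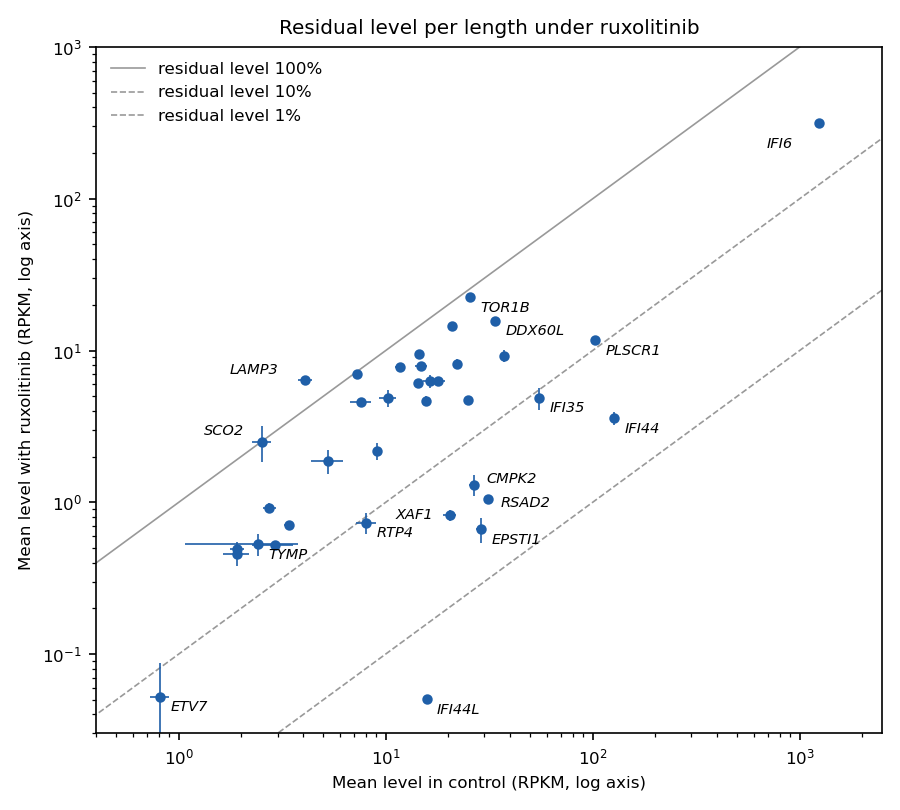
Mean RPKM with ruxolitinib against mean RPKM in control for the 37 members tested, on log axes, with bars of 1 SD over 3 libraries and lines at residual levels of 100%, 10% and 1%. IFI6 lies highest on both axes, IFI44L lies under the 1% line and LAMP3 lies over the 100% line.

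The genes of the pathway upstream were read beside the members. Of a list of 19 receptors, kinases, transcription factors and inhibitors, 18 were tested, 12 fell, IFNAR1 rose and 5 did not pass, with a median log2 fold change of -0.28. The factors that bind interferon-responsive promoters, themselves interferon-induced, were among those that fell. IRF9 fell by 2.29 ± 0.07 (adjusted p = 1.66e-10), and STAT2 by 1.14 ± 0.08 (adjusted p = 4.81e-06). USP18, an inhibitor of the type I receptor, fell by 5.33 ± 0.18 (adjusted p = 1.74e-08).

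The RNA of the drug's own targets was slightly lower. The log2 fold change of JAK1 was -0.16 ± 0.05 (adjusted p = 0.0258), a call lost without control replicate 1 (0.114), control replicate 3 (0.172), ruxolitinib replicate 1 (0.126) or ruxolitinib replicate 3 (0.0839), and with the batch number as a block (0.103), without batch 1 (0.263) or without batch 3 (0.220). Median-ratio scaling, upper-quartile scaling and DESeq2 did not call it either (0.0636, 0.0697 and 0.0690). JAK2 had -0.28 ± 0.07 (adjusted p = 0.0125), a call lost without control replicate 1 (0.0845) or ruxolitinib replicate 1 (0.0742), and without batch 1 (0.246) or batch 3 (0.0539). TYK2, another kinase of these receptors, had 0.34 ± 0.16 (adjusted p = 0.174), and it passed when control replicate 2 was left out (0.52, adjusted p = 5.49e-04), with DESeq2 (adjusted p = 0.0152), with no filter (adjusted p = 0.00237) and without batch 2 (0.60, adjusted p = 6.73e-09). The rise of IFNAR1, a chain of the type I receptor, was 0.19 ± 0.06 (adjusted p = 0.0313). It did not pass without control replicate 2 (0.0920), control replicate 3 (0.0739), ruxolitinib replicate 1 (0.0862) or ruxolitinib replicate 2 (0.0881), with the batch number as a block (0.0971) or with library totals alone (0.0532). It also did not pass without batch 1 (0.129) or batch 2 (0.137).

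The families that the members stand outside of are given for comparison. Of 15 genes of the OAS, IFIT and ISG15 conjugation families all 15 fell, and their median log2 fold change was -4.52. The count was 14 with DESeq2, without control replicate 3, and without batch 1 or batch 3. Whether that median differs from the members' -1.97 was not tested. The most significant were OAS3 (residual 4.36%, adjusted p = 1.06e-13), IFIT3 (2.17%, 1.12e-13), HERC6 (7.59%, 5.15e-13) and OAS2 (2.01%, 5.61e-13), beside residual levels of 0.319% to 25.4% in the 10 effector genes above.

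Relatives of members by gene family were compared too. Of 12 relatives, chosen after the members' values were seen, 4 fell, none rose and 8 did not pass (edgeR). DDX60, the relative of DDX60L, fell by 1.92 ± 0.07 (adjusted p = 8.16e-10) to 26.4% of control. The other 3 falls were small, with 81.1% left of HELZ, 79.9% of ETV6 and 89.97% of TOR1A. The TOR1A call (adjusted p = 0.0441) was lost without control replicate 1 (0.120), control replicate 3 (0.237), ruxolitinib replicate 1 (0.112) or ruxolitinib replicate 3 (0.149). It was also lost with median-ratio scaling (0.0924), upper-quartile scaling (0.112), no filter (0.0674), DESeq2 (0.145), limma-voom (0.0513) and the batch number as a block (0.138). IFI27L1 and IFI27L2, relatives of IFI27, kept 99.1% and 92.6% and did not pass, and PLSCR3, a scramblase like PLSCR1, kept 103%. PLSCR2, which lies beside PLSCR1 and is not among the 12 relatives, fell by 3.51 ± 0.59 (adjusted p = 7.47e-04). Its few reads went from 0.859 CPM in control to 0.0707 CPM with ruxolitinib, and it was named after its values were seen.

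Genes next to the members along the chromosome were set beside them as a comparison. The nearest protein-coding gene on each side, with the members themselves left out, gave 78 genes, of which 53 were tested. Of these, 18 fell (34.0%), 6 rose (11.3%) and 29 did not pass, with a median log2 fold change of -0.09, against 16.1% and 13.6% of all genes tested. The number that fell was 11 with DESeq2, and 9 or 11 without the libraries of batch 1 or batch 3. The number that rose was 2 with the batch number as a block, 3 without ruxolitinib replicate 1 or 2 and 0 without batch 1. The 2 falls with the smallest adjusted p belong to known interferon-stimulated genes. IFIH1, the RNA sensor MDA5, starts 137 bases from GCA and fell by 3.72 ± 0.07 (adjusted p = 1.74e-12), from 180 to 13.6 CPM. BST2, the virus-tethering protein tetherin, starts 11490 bases from CCDC194 and fell by 2.15 ± 0.04 (adjusted p = 2.23e-12). TREX1 and PFKFB4, on either side of SHISA5, fell by 1.15 ± 0.13 (adjusted p = 3.89e-05) and 0.49 ± 0.06 (adjusted p = 6.06e-05). NME7, singled out after its values were seen, starts 3 bases from BLZF1, and its log2 fold change was -0.15 ± 0.10 (adjusted p = 0.282), beside -0.53 for BLZF1.

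**Figure D4:**
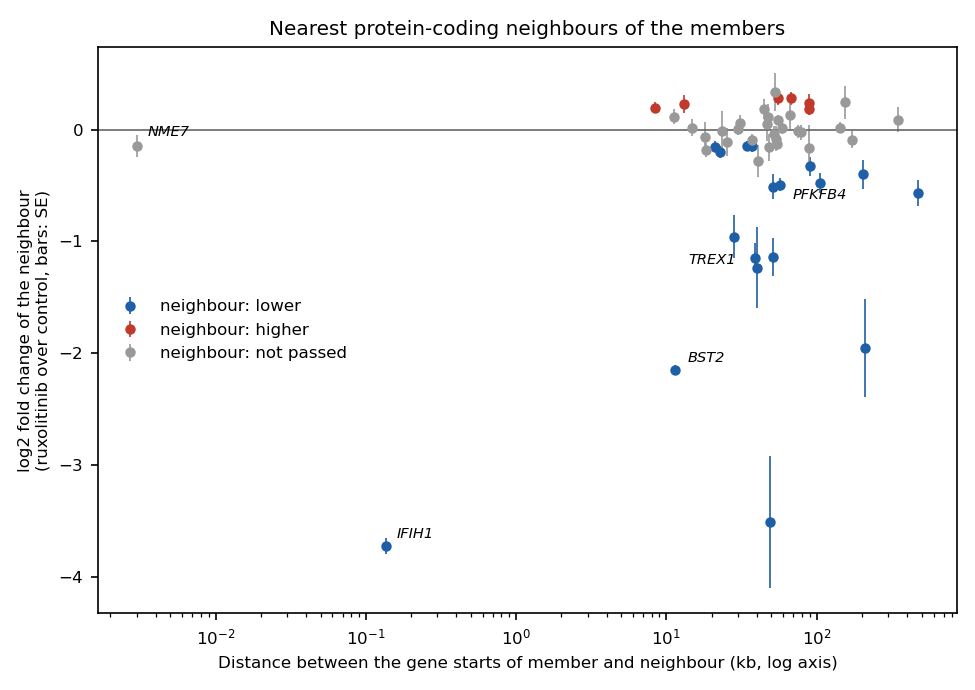
Log2 fold change of the 53 neighbours tested (bars are SE) against the distance in kb, on a log axis, between the starts of member and neighbour. IFIH1 is lowest at -3.72, and the points are coloured by whether the neighbour was lower, higher or did not pass.

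Promoter windows of 250 bases before to 50 bases after the RefSeq start were found for 35 of the 42 members. The response-element motif of GAAA, any 2 bases and GAAA stood on either strand in 17 of these 35 genes (48.6%), against 4.38% of the 27305 genes in the table. In the part before the start alone, the shares were 40.0% and 3.71%. With the closer spaced GAAANGAAA counted as well, they were 60% and 7.83%. The letters TTCNNNGAA, the form of a gamma-activated site, stood in 7 of the 35 (20%), against 9.38% of all genes. A match is a run of letters in a window and not a shown binding site, and the genes were chosen as known interferon-stimulated genes.

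How the members' responses stood beside the motif differed with the spacing counted. The 16 tested members with GAAA, any 2 bases and GAAA had a median log2 fold change of -2.03, from -8.27 for IFI44L to -0.61 for NMI, and all 16 fell. The 15 tested members with a window and without that spacing had a median of -1.97, and 14 fell. Among these 15, XAF1, CMPK2, IFI35 and PNPT1 hold the closer spaced GAAANGAAA. With both spacings counted, the 20 members that hold either had a median of -2.33, and all 20 fell. The 11 that hold neither had a median of -1.38, from -2.48 for HELZ2 to -0.04 for NT5C3A, and 10 fell. These medians are descriptions with no test.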

How the data were processed

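The deposited table holds raw read counts, whole numbers, 1 row a gene, and its columns were matched to the 6 samples by their titles. The build was hg38, per the submitters' processing notes. For the aligner, the counter, the annotation and the use of strand, the step taken is not given in the sources used here. Counts were scaled with TMM factors and tested with edgeR 4.0.16 (R 4.3.3, glmQLFit robust and glmQLFTest) across 14051 genes kept by filterByExpr (minimum count 10, minimum total 15), with Benjamini-Hochberg adjustment and a threshold of 0.05. Errors of log2 fold changes are standard errors (SE), computed from each coefficient and F value. Rate ratios of scarce genes carry exact binomial intervals. The procedure was also run on simulated data with a small share of changed genes and no batch effect or outlying library. These simulated data differ from the data here, so the procedure's accuracy on the data here was not tested.

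Per the labels, a batch number from 1 to 3 is shared by 1 control and 1 ruxolitinib library, and that number is the pairing used as a block in an alternative. The correlations of deviations of libraries with the same number were -0.03, -0.27 and -0.15, and only the label supports the pairing. No label says that replicates were separate cultures. The p-values then describe only how far these samples spread, which may be technical.

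The members, lists and tests were chosen with earlier results of these data known. All members are described. Genes of the other lists were named where their adjusted p was among the 4 smallest, with JAK1, JAK2, TYK2, STAT2 and IRF9 named whatever their values. Some genes of these lists are not reported here. Alternatives were median-ratio, upper-quartile and total scaling, no filter, a 1 CPM minimum (3 libraries), limma-voom (limma 3.58.1), DESeq2 1.42.0, the batch block, and leaving out each library or batch. The alternatives for named genes that are not members, for SECTM1 and for the medians by motif were added after seeing the data.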

Additional observations from a re-analysis of the deposited data

How the results depend on the processing

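Of the 37 members tested, 35 kept their side of the threshold under every alternative run, and the exceptions were TOR1B and TYMP. No call changed direction. The log2 fold changes of SCO2 and NT5C3A, which did not pass, took both signs across the alternatives. The number of members lower was 32 to 35 with libraries or batches left out and 33 to 37 otherwise, the 37 being of all 42 members in the fit with no filter, and 1 was higher in each. The members' median log2 fold change was -1.96 to -1.87 without single libraries (-1.87 without ruxolitinib replicate 2, -1.88 without control replicate 2), -1.79, -1.87 and -1.83 without batches 1, 2 and 3, and -2.003 to -1.93 otherwise, and the median residual level over all 42 members, 25.5% with TMM factors and all libraries, was 24.9% to 26.1% across scalings, 25.6% without ruxolitinib replicate 1 to 29.9989% without control replicate 2, and 28.6% and 30.8% without batches 1 and 2. Without batch 1 in both groups, 1143 of all genes tested were lower and 840 higher. Over all leave-outs these counts ran to 2481 and 2553. With the batch number as a replicate block, 33 members were lower, beside 1627 of all genes lower and 1288 higher, and no member but TOR1B lost its call. The count of pathway genes higher was 2 with upper-quartile factors, with no filter or with DESeq2, 0 with library totals alone or with the block, and 0 to 2 with libraries left out. Neighbouring genes lower numbered 11 with DESeq2 and 9 to 20 with libraries left out, and those higher numbered 2 with the block and 0 to 6 with libraries left out (3 without ruxolitinib replicate 1 or 2). The causes were not tested. Depth limits the 5 members under the filter. For VAMP5 and FAM20A, a change within their counting intervals was not detectable.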
